A study of Mus musculus with 21 samples.

Results

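The 10 genes described here belong to interleukin-6 receptor, STAT3 and acute-phase signalling: Il6ra, Il6st, Osmr, Il4ra, Stat3, Socs3, Cebpb, Cebpd, Lcn2 and Lrg1. They were chosen by name, with earlier results of these data known. All 10 were found among the 24206 gene names of the deposited table. RNA had been sequenced from live CD45-CD31+PDGFRb- cells sorted from brains of C57BL/6 mice aged 12 to 20 weeks, in 21 libraries. In the stroke experiment every mouse had its middle cerebral artery closed for 1 h and reopened for 1 d, and all carried ROSA-CreER, an inducible recombinase expressed from a locus active in most cell types. Gpr124 is a co-receptor for Wnt7 ligands in brain endothelium. Knockout mice were Gpr124 flox/-; ROSA-CreER+, and their stroke and non-stroke hemispheres are cKO_ST and cKO_NS. Control mice were Gpr124 flox/+; ROSA-CreER+, with 1 allele that cannot be recombined, and their hemispheres are Control_ST and Control_NS (n = 4 for each of the 4 groups). The non-stroke hemisphere is therefore the other side of an operated brain and not an unoperated one.

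Interleukin-6 reaches a cell through a receptor chain that binds it, Il6ra, and a shared signalling chain, Il6st (also called gp130). Bound receptors activate Janus kinases, which phosphorylate the transcription factor STAT3, and STAT3 in turn raises Socs3, an inhibitor that shuts the receptor off. Oncostatin M uses Osmr with the same gp130 chain. STAT3 and the C/EBP factors Cebpb and Cebpd together drive acute-phase genes, of which Lcn2 (lipocalin 2, an iron-siderophore carrier) and Lrg1 (a secreted glycoprotein that acts on TGF-beta signalling in vessels) are known in inflamed endothelium. Il4ra binds interleukin-4 and interleukin-13 and signals mainly through STAT6.

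A second experiment without stroke set Ctnnb1 lox(ex3)/+; Cdh5-CreER+ mice (Bcat_exon3, n = 3) against Ctnnb1 +/+; Cdh5-CreER+ mice (Bcat_control, n = 2), where Cdh5-CreER acts in endothelial cells and loss of exon 3 stabilises beta-catenin. Stroke libraries hold the 3' ends of polyadenylated RNA and the others total RNA made with another kit, so levels are not compared between the experiments. Values are RPKM, reads per kilobase of gene scaled to the mapped reads of the library. A log2 fold change is the difference in mean log2(RPKM + 1), ± after it is the SE of the limma fit, and ± after an RPKM mean is the SD. "Rose" and "fell" are written of genes with a limma adjusted p under 0.05. Exons of Il6ra, Il4ra, Stat3, Cebpb and Cebpd overlap a gene on the opposite strand (by 72 bases for Stat3 and Stat5a up to 571 bases for Il4ra and Gm44876), and whether counting used strand is not given in the sources used here, so reads of such pairs may be mixed.

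All 14 endothelial markers were above 0 in each group. Defining markers of astrocytes (Gfap at most 0.528 RPKM, Aqp4 at most 0.292 RPKM) were near 0 in the stroke libraries. Estimated depth was 4.72 to 19.7 M reads per stroke library; no depth was estimated for the exon 3 experiment. Nothing in the labels ties the libraries of a group to different mice, and the p-values therefore reflect variation among these samples, which may be technical. Gpr124 had 0.50, 1.72, 1.72 and 1.52 RPKM in cKO_ST, below all Control_ST libraries (8.12, 5.94, 2.92 and 2.98 RPKM). In cKO_NS it had 2.03, 0.994, 3.15 and 4.85 RPKM, against 3.01, 7.58, 4.74 and 2.65 RPKM in Control_NS, and these groups overlapped. The labels give cKO_ST 3 and 4 as male and the other stroke libraries as female, yet cKO_ST 3 held 89.7 RPKM of Xist, and cKO_NS 4 held 189 RPKM of Y-linked RNA and 1.48 RPKM of Xist. The libraries with Y-linked RNA were thus cKO_NS 4 and cKO_ST 4. For part of the knockout results, values without cKO_NS 4 and cKO_ST 3 or without cKO_NS 4 and cKO_ST 4 are also given.

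The promoters of Socs3, Lcn2 and Lrg1, the 3 members with the largest changes in control stroke, are shown to place the letters that STAT3 and the C/EBP factors are known to bind. Each line gives the 250 bases before the RefSeq start in GRCm38.p6, 5' to 3' on the gene's minus strand, with motif matches in capitals. The gene coordinates given below come from another annotation and reach 117970047 for Socs3, 32388252 for Lcn2 and 56122001 for Lrg1. By these the Socs3 and Lcn2 windows lie inside the gene, and the Lrg1 window in part.
Socs3 (chr11:117969367-117969616, minus): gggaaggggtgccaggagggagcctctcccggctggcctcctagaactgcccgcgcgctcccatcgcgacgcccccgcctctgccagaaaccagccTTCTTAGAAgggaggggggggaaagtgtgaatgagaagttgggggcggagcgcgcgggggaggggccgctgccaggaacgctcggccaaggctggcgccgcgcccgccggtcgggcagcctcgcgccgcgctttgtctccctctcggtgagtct
Lcn2 (chr2:32387740-32387989, minus): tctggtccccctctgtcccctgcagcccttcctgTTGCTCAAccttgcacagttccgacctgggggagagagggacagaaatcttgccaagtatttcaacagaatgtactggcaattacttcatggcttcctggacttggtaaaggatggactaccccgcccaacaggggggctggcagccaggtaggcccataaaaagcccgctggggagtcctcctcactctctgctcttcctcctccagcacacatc
Lrg1 (chr17:56121947-56122196, minus): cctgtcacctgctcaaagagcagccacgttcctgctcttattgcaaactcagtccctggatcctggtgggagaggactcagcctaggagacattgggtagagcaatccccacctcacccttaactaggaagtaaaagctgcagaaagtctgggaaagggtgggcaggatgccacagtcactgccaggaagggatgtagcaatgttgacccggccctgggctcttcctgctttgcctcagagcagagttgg
The STAT motif searched was TTCNNNGAA and the C/EBP motif TTGCNNAA, each on both strands. Socs3 holds TTCTTAGAA at 154 to 146 bases before its start, and Lcn2 holds TTGCTCAA at 216 to 209 bases before its start. Neither motif is in this window of Lrg1, and the 2 matches lie in different promoters. Of 32851 RefSeq promoters of this length 7.02% hold the STAT motif and 9.56% the C/EBP motif. Of the 9 members with a RefSeq promoter 1 holds each. A match describes letters and does not show binding.

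In control mice the stroke hemisphere had more RNA of most of these genes. Of the 10 members 8 rose and 0 fell, where 8.46% of the 9838 genes tested rose and 4.84% fell. Because the members were chosen with earlier results of these data known, shares over all genes are a description and not a test. The count was 4 without Control_ST 4, 5 without Control_NS 1, 3 or 4 or Control_ST 3, 6 without any of the other 3 control libraries, and 5 with no filter on low values. Members had a median log2 fold change of 1.13, against 0.01 over all genes tested, and all 10 values were positive. Groups did not overlap for 7 members, where 11.9% of genes were higher without overlap. Bulk RNA cannot tell more RNA per cell from more cells of a type.

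The acute-phase genes Lcn2 and Lrg1 and the feedback inhibitor Socs3 had the largest fold changes of the members in controls. Lcn2 (GRCm38 chromosome 2, 32384633 to 32388252, minus strand) had 103, 201, 138 and 373 RPKM in Control_ST, against 29.7, 27.2, 38.3 and 27.7 RPKM in Control_NS. In knockouts Lcn2 had 269, 344, 944 and 286 RPKM in cKO_ST, against 73.2, 80.6, 266 and 83.9 RPKM in cKO_NS. Stroke libraries lay above all non-stroke libraries of the same genotype, and number 3 stood above the other 3 in both knockout groups. Lcn2 rose by 2.53 ± 0.44 in controls (limma adjusted p = 8.4e-04) and by 1.88 ± 0.44 in knockouts (adjusted p = 0.00709). Without cKO_NS 4 and cKO_ST 3, the libraries whose sex-linked RNA goes against their labels, the knockout value was 1.35 and did not pass (adjusted p = 0.0526). Without cKO_NS 4 and cKO_ST 4, which hold Y-linked RNA, it was 1.92 (adjusted p = 0.0247).

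**Figure D1:**
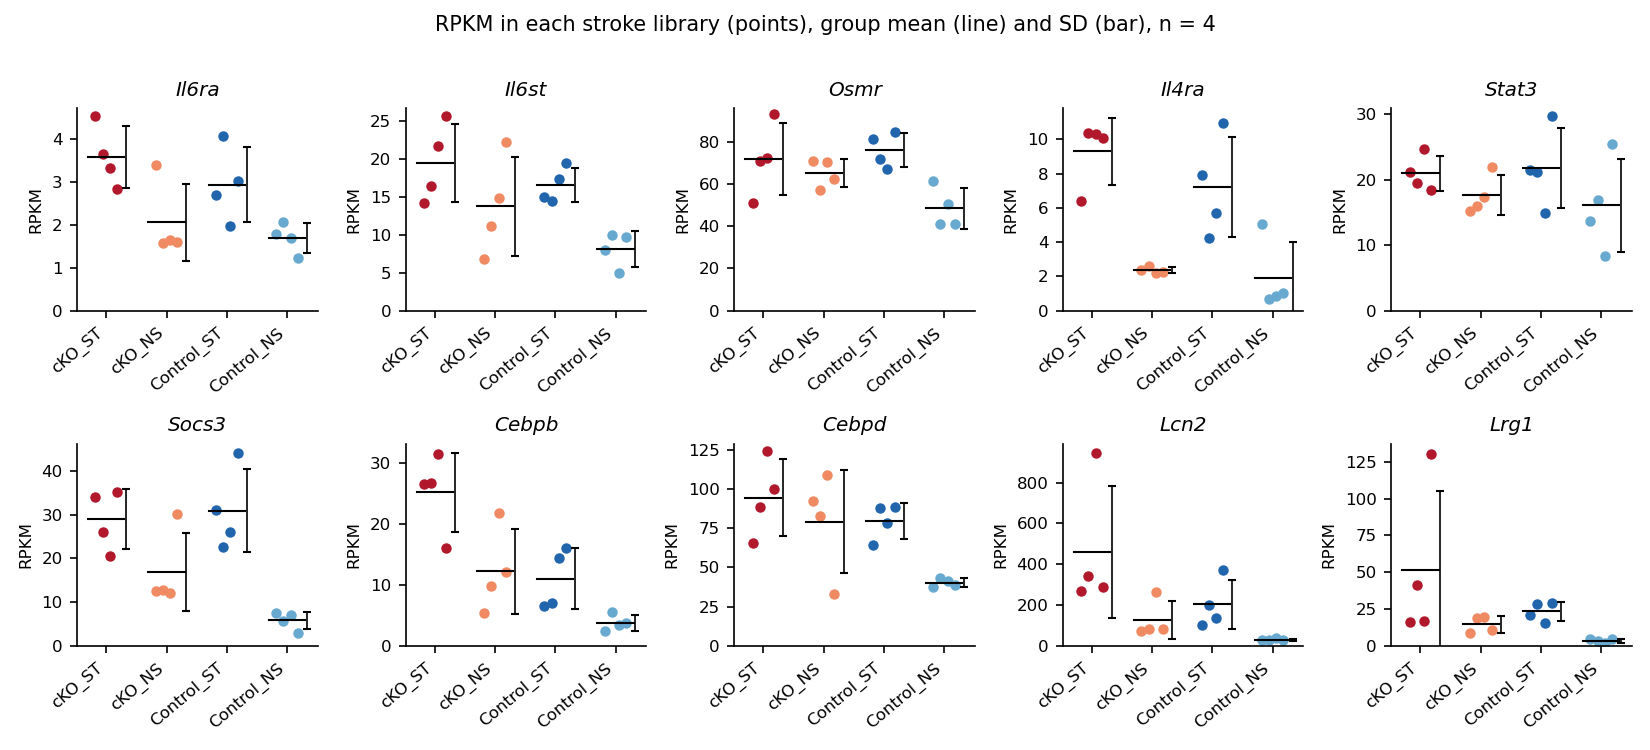
RPKM of the 10 members (vertical axes, from 0) in every library of cKO_ST, cKO_NS, Control_ST and Control_NS (points), with the group mean (line) and SD (bar, n = 4, ending at the axis where it would pass 0). Lcn2, Lrg1 and Socs3 in Control_NS sit below every library of the other 3 groups, and Stat3 overlaps in all 4 groups.

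Lrg1 (chromosome 17, 56119678 to 56122001, minus strand) had 21.0, 28.1, 15.5 and 28.9 RPKM in Control_ST, against 4.54, 3.06, 1.88 and 4.63 RPKM in Control_NS. In knockouts it had 16.4, 41.2, 17.1 and 131 RPKM in cKO_ST, against 8.49, 19.1, 19.8 and 11.0 RPKM in cKO_NS. The control groups did not overlap, whereas knockout groups overlapped and cKO_ST 4 stood far above the rest. Lrg1 rose by 2.44 ± 0.49 in controls (limma adjusted p = 0.00258). Its knockout value of 1.30 ± 0.49 did not pass (adjusted p = 0.0835), and passed without cKO_ST 1 (1.65, adjusted p = 0.0415) or without cKO_ST 3 (1.63, adjusted p = 0.0360). Without cKO_NS 4 and cKO_ST 4 it was 0.58 (adjusted p = 0.389).

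Lcn2 and Lrg1 are also neutrophil genes, so neutrophil markers were summed in each library (13 of 14 listed markers matched). The sum ranged over 6.21 to 24.4 RPKM in cKO_ST and 10.5 to 90.2 RPKM in cKO_NS, and over 1.90 to 107 RPKM in Control_ST and 0.563 to 12.9 RPKM in Control_NS. It came mainly from S100a8, S100a9 and Retnlg, while Mpo, Elane, Camp and Cd177 were at 0 in every stroke library. Between 5 and 8 of the markers were above 0 in a group. Control_ST 4 had the highest sum of all libraries, 107 RPKM, and the highest Lcn2 (373 RPKM) and Lrg1 (28.9 RPKM) of its group. Control_ST 2, with the lowest sum of that group, 1.90 RPKM, had nearly as much Lrg1 (28.1 RPKM). cKO_ST 3, with the highest Lcn2 of all libraries, had the highest sum of its group, 24.4 RPKM. cKO_ST 4, with the highest Lrg1 of the stroke libraries, 131 RPKM, had the lowest sum of that group, 6.21 RPKM. In cKO_NS the highest sum, 90.2 RPKM, was in library 4, with 83.9 RPKM of Lcn2, and the highest Lcn2, 266 RPKM, was in library 3, with a sum of 11.2 RPKM. The sum was higher in Control_ST than in Control_NS at the median (23.5 against 0.949 RPKM). The part of neutrophil RNA in the results on Lcn2 and Lrg1 was not tested.

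Socs3 (chromosome 11, 117966079 to 117970047, minus strand) had 31.1, 22.5, 26.0 and 44.2 RPKM in Control_ST, against 7.44, 5.78, 7.09 and 2.95 RPKM in Control_NS. In knockouts it had 34.2, 26.0, 20.7 and 35.3 RPKM in cKO_ST, against 12.5, 12.8, 12.2 and 30.3 RPKM in cKO_NS. The 2 stroke groups covered nearly the same range, and cKO_NS overlapped cKO_ST only through cKO_NS 4. Socs3 rose by 2.24 ± 0.32 in controls (limma adjusted p = 1.23e-04) and its knockout value was 0.82 ± 0.32 (adjusted p = 0.0895). Without cKO_NS 4 the knockout value was 1.13 and passed (adjusted p = 0.0148). It also passed without cKO_NS 4 and cKO_ST 3 (1.27, adjusted p = 0.00989) and without cKO_NS 4 and cKO_ST 4 (1.02, adjusted p = 0.0405).

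Stat3 itself (chromosome 11, 100885098 to 100939540, minus strand) did not pass in either genotype. It had 21.4, 21.2, 14.9 and 29.8 RPKM in Control_ST, against 13.7, 16.9, 8.36 and 25.4 RPKM in Control_NS, and these ranges overlapped. The log2 fold change in controls was 0.48 ± 0.27 (limma adjusted p = 0.283, 95% interval -0.10 to 1.05). In knockouts Stat3 averaged 21.0 ± 2.69 RPKM in cKO_ST and 17.6 ± 3.05 RPKM in cKO_NS (SD, n = 4 each), with a log2 fold change of 0.24 ± 0.27 (adjusted p = 0.595).

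Among the receptors, the chain shared by the family and the oncostatin M chain rose in controls, while the interleukin-6 binding chain did not pass. Il6st (chromosome 13, 112464070 to 112510086, plus strand) had 15.0, 14.5, 17.4 and 19.5 RPKM in Control_ST, against 7.94, 9.96, 4.91 and 9.74 RPKM in Control_NS, without overlap (0.98 ± 0.30, limma adjusted p = 0.0402). Osmr (chromosome 15, 6813577 to 6874969, minus strand) had 81.2, 71.9, 67 and 84.5 RPKM in Control_ST, against 61.4, 41.1, 50.3 and 41.2 RPKM in Control_NS, without overlap (0.65 ± 0.19, adjusted p = 0.0271). Il6ra (chromosome 3, 89864059 to 89913196, minus strand) stayed low, at 2.68, 4.08, 1.96 and 3.02 RPKM in Control_ST and 1.78, 2.07, 1.68 and 1.22 RPKM in Control_NS, and the groups overlapped (0.53 ± 0.27, adjusted p = 0.218). The Il6st call was lost without Control_NS 1 or 3 or any single Control_ST library (adjusted p 0.0579 to 0.122). The Osmr call was lost without Control_NS 2 or 4 or Control_ST 1 or 4 (adjusted p 0.0698 to 0.0803).

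In knockouts no receptor of the interleukin-6 family rose. Il6ra averaged 3.58 ± 0.720 RPKM in cKO_ST and 2.05 ± 0.893 RPKM in cKO_NS (0.61 ± 0.27, limma adjusted p = 0.140). Il6st averaged 19.5 ± 5.18 RPKM in cKO_ST and 13.8 ± 6.56 RPKM in cKO_NS (0.55 ± 0.30, adjusted p = 0.239). Osmr averaged 71.8 ± 17.2 RPKM in cKO_ST and 65.2 ± 6.63 RPKM in cKO_NS (0.11 ± 0.19, adjusted p = 0.737). The groups overlapped for all 3 receptors.

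Il4ra (chromosome 7, 125552120 to 125579474, plus strand) rose in both genotypes. It had 6.40, 10.4, 10.3 and 10.1 RPKM in cKO_ST, against 2.39, 2.59, 2.19 and 2.27 RPKM in cKO_NS, without overlap. In controls it had 7.91, 4.21, 5.72 and 11.0 RPKM in Control_ST, against 5.07, 0.660, 0.843 and 1.04 RPKM in Control_NS, where Control_NS 1 alone reached into the stroke range. Log2 fold changes were 1.59 ± 0.37 in knockouts (limma adjusted p = 0.00652) and 1.66 ± 0.37 in controls (adjusted p = 0.00532). Il4ra kept both calls without any single library. Without cKO_NS 4 and cKO_ST 3 its knockout value was 1.53 (limma adjusted p = 0.0311).

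The C/EBP factors rose in controls. Cebpb (chromosome 2, 167688915 to 167690418, plus strand) had 6.51, 7.08, 14.5 and 16.1 RPKM in Control_ST, against 2.38, 5.50, 3.46 and 3.75 RPKM in Control_NS (1.28 ± 0.37, limma adjusted p = 0.0284). Cebpd (chromosome 16, 15887286 to 15891031, plus strand) had 64.2, 87.8, 78.6 and 88.6 RPKM in Control_ST, against 37.5, 43.3, 41.6 and 39.0 RPKM in Control_NS (0.96 ± 0.28, adjusted p = 0.0312). Neither pair of control groups overlapped. The Cebpb call was lost without Control_NS 1, 3 or 4 or Control_ST 3 or 4 (adjusted p 0.0563 to 0.0904), and the Cebpd call without any single control library but Control_ST 1 (adjusted p 0.0511 to 0.0758).

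In knockouts Cebpb had 26.6, 26.7, 31.4 and 16.1 RPKM in cKO_ST, against 5.30, 9.74, 21.7 and 12.2 RPKM in cKO_NS. The groups overlapped, since cKO_NS 3 lay above cKO_ST 4. The log2 fold change of 1.10 ± 0.37 just missed the threshold (limma adjusted p = 0.0533) and passed with same-numbered knockout libraries paired (adjusted p = 0.0461), without cKO_NS 3 (1.41, adjusted p = 0.0167) or without cKO_ST 4 (1.29, adjusted p = 0.0387). Cebpd averaged 94.6 ± 24.5 RPKM in cKO_ST and 79.3 ± 32.7 RPKM in cKO_NS, where cKO_NS 4 had 33.1 RPKM and the other 3 had 82.7 to 109 RPKM. Its log2 fold change was 0.34 ± 0.28 (adjusted p = 0.453), and it was below 0 without cKO_NS 4 (-0.03), without cKO_NS 4 and cKO_ST 4 (-0.07) and without cKO_NS 4 and cKO_ST 3 (-0.17).

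In knockouts as a whole 2 of the 10 members, Lcn2 and Il4ra, rose and 0 fell, where 6.44% of all genes tested rose and 8.71% fell. All 10 log2 fold changes were positive and 6 had an unadjusted p under 0.05. The median of the members was 0.72, against -0.13 over all genes tested. Groups did not overlap for 2 members, where 7.4% of genes were higher without overlap. With libraries rescaled by the median of their ratios to a mean library, the median over all genes moved to -0.01, the calls over all genes went to 868 higher and 601 lower, in place of 634 higher and 857 lower, and 5 members rose, with Socs3 (adjusted p = 0.0442), Cebpb (0.0303) and Lrg1 (0.0486) added. With quantile normalization 744 genes rose, 663 fell, and 5 members rose, with Il6ra (0.0487), Socs3 (0.0484) and Cebpb (0.0424) added.

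**Figure D2:**
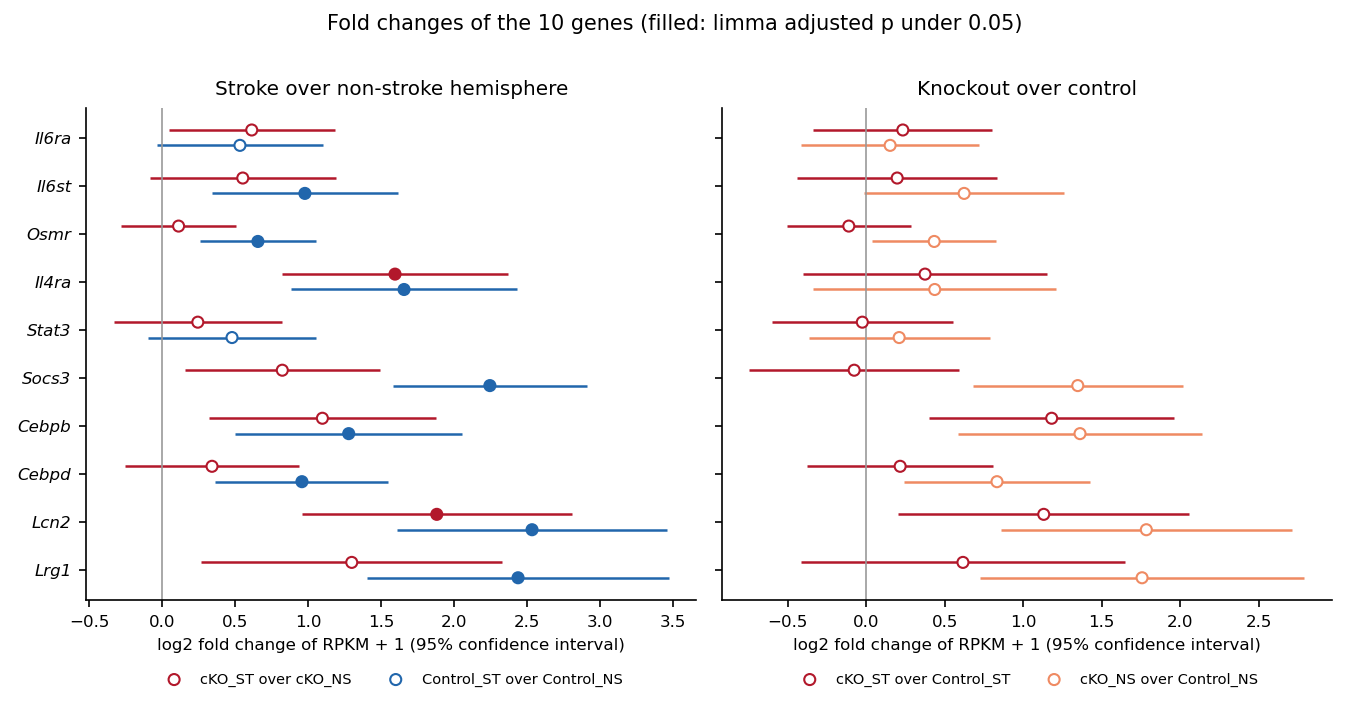
Log2 fold changes of RPKM + 1 (horizontal axes, with 95% intervals) for the 10 members, for stroke over non-stroke hemisphere at left and knockout over control at right, with filled points where the limma adjusted p is under 0.05. Filled points stand for 2 members in knockouts and 8 in controls at left, and for none at right, where 0 members passed.

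Whether the response to stroke differed between genotypes was tested with the interaction, the stroke effect in knockouts minus that in controls. No member passed (0 of 10, with 1 at an unadjusted p under 0.05), and 0 of 9838 genes passed (0%, with 691 at an unadjusted p under 0.05). The member with the lowest p was Socs3, at -1.42 ± 0.45 (95% interval -2.37 to -0.48, limma adjusted p = 0.681), with a stroke effect of 0.82 in knockouts and 2.24 in controls. Lrg1 was at -1.14 ± 0.69, Lcn2 at -0.65 ± 0.62 and Il4ra at -0.06 ± 0.52 (95% interval -1.16 to 1.03). Of the 10 interaction values 9 were negative, with a median of -0.48, against -0.14 over all genes tested. With median-of-ratios scaling the median over all genes was 0.00 and Il4ra turned positive.

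Knockout and control mice were next compared within a hemisphere. In the non-stroke hemisphere all 10 members had positive log2 fold changes, and 0 passed the limma test, where 0.315% of genes passed (0.224% or 22 rose and 0.0915% or 9 fell; 14 rose and 15 fell with median-of-ratios scaling). The median of the members was 0.73, against 0.11 over all genes tested, and 6 had an unadjusted p under 0.05. Socs3, Lcn2 and Lrg1 were higher without overlap, which held for 6.66% of genes.

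From the values above, Lcn2 averaged 126 ± 93.6 RPKM in cKO_NS and 30.7 ± 5.13 RPKM in Control_NS, with every knockout library above every control library (1.78 ± 0.44, limma adjusted p = 0.0772). Lrg1 averaged 14.6 ± 5.69 RPKM in cKO_NS and 3.53 ± 1.31 RPKM in Control_NS (1.76 ± 0.49, adjusted p = 0.111). Socs3 averaged 16.9 ± 8.91 RPKM in cKO_NS and 5.81 ± 2.04 RPKM in Control_NS (1.35 ± 0.32, adjusted p = 0.0640). Cebpb averaged 12.2 ± 6.93 RPKM in cKO_NS and 3.77 ± 1.30 RPKM in Control_NS, with an overlap (1.36 ± 0.37, adjusted p = 0.103).

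Cebpd in the non-stroke hemisphere had 92.2, 82.7, 109 and 33.1 RPKM in cKO_NS, against 37.5, 43.3, 41.6 and 39.0 RPKM in Control_NS (0.83 ± 0.28, limma adjusted p = 0.187). Libraries 1, 2 and 3 of cKO_NS lay above all controls, and cKO_NS 4 lay below them. Without cKO_NS 4 Cebpd passed (1.2, adjusted p = 0.0178). Without cKO_NS 4 and cKO_ST 4, which hold Y-linked RNA, Cebpd (1.2, adjusted p = 0.0145) and Lrg1 (1.86, adjusted p = 0.0335) passed, Lcn2 was at 1.90 (adjusted p = 0.0753) and Socs3 at 1.04 (adjusted p = 0.0972). Neutrophil marker sums also differed here (10.5 to 90.2 RPKM in cKO_NS and 0.563 to 12.9 RPKM in Control_NS), and their part in these values was not tested.

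In the stroke hemisphere 0 of 10 members and 0 of 9838 genes (0%) differed between genotypes in limma, with 2 members and 476 genes at an unadjusted p under 0.05. Cebpb had 26.6, 26.7, 31.4 and 16.1 RPKM in cKO_ST, against 6.51, 7.08, 14.5 and 16.1 RPKM in Control_ST (1.18 ± 0.37, limma adjusted p = 0.810). The lowest knockout library, at 16.10 RPKM, lay just above the highest control library, at 16.05 RPKM, and groups were higher without overlap for this 1 member, as for 1.46% of genes. Lcn2 averaged 461 ± 324 RPKM in cKO_ST and 204 ± 120 RPKM in Control_ST, with overlap (1.13 ± 0.44, adjusted p = 0.994). Socs3 averaged 29.0 ± 6.94 RPKM in cKO_ST and 31.0 ± 9.50 RPKM in Control_ST (-0.08 ± 0.32, 95% interval -0.74 to 0.59). The median of the members was 0.23, against -0.03 over all genes tested.

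Across the 4 stroke groups Control_NS had the lowest mean of all 10 members, and the highest mean was in cKO_ST for 7 members and in Control_ST for 3 (Osmr, Stat3 and Socs3). For Lcn2 the means were 461 RPKM in cKO_ST, 126 RPKM in cKO_NS, 204 RPKM in Control_ST and 30.7 RPKM in Control_NS, and the neighbours Control_ST and cKO_NS in that order overlapped, as did cKO_ST and Control_ST. For Socs3 cKO_ST and Control_ST overlapped over most of their range. Deviations from the group means were correlated for all pairs of members (Pearson r over 16 libraries). The highest r was for Osmr and Il4ra (0.68), followed by Lcn2 and Cebpb (0.62). The lowest were for Socs3 and Cebpd (-0.64) and for Il6ra and Il6st (-0.61), and Lrg1 and Lcn2 were at -0.03. Library cKO_NS 4 had the highest Socs3 (30.3 RPKM) and the lowest Cebpd (33.1 RPKM) of its group. These pairs were picked by their values and carry no test.

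The genes most like a member were found by correlating deviations from the group means over the 16 stroke libraries, among 5838 genes with a mean of at least 5 RPKM. For Socs3 they included the chaperone Hspb1 (r = 0.96) and the inducible heat-shock gene Hspa1a (r = 0.94). Hspb1 had 941 RPKM and Hspa1a 242 RPKM in cKO_NS 4, the library with the highest Socs3 of its group, against 462 to 470 RPKM and 94.9 to 111 RPKM in the other cKO_NS libraries. For Stat3 they were Rnpc3 (0.92), Orai3 (0.88) and Sap30l (0.87), for Lrg1 Snx1 (0.87), Ccdc66 (0.87) and Cox14 (0.84), and for Lcn2 Map3k6 (0.82), Map4k2 (0.81) and Abhd1 (0.80). Being the highest of 5838 correlations, these values describe the libraries and carry no test.

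Around the members, other genes of the pathway were described by role. These lists too were chosen with earlier results known, so their counts beside all genes are not a test. Of 11 ligands of the interleukin-6 family 2 were tested, and Il6, the ligand itself, rose in both genotypes. Over all genes tested 6.44% rose in knockouts and 8.46% in controls. Il6 had 5.50, 16.4, 4.18 and 10.2 RPKM in cKO_ST, against 0, 0.542, 0.0793 and 0.661 RPKM in cKO_NS, and 3.94, 4.03, 1.54 and 7.42 RPKM in Control_ST, against 0, 0, 0 and 0.0630 RPKM in Control_NS. The groups were well apart in both genotypes (2.80 ± 0.39 in knockouts, limma adjusted p = 1.08e-04, and 2.24 ± 0.39 in controls, adjusted p = 8.42e-04). Il6 passed the filter on low values only through the stroke libraries, so its direction was fixed by the filter.

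**Figure D3:**
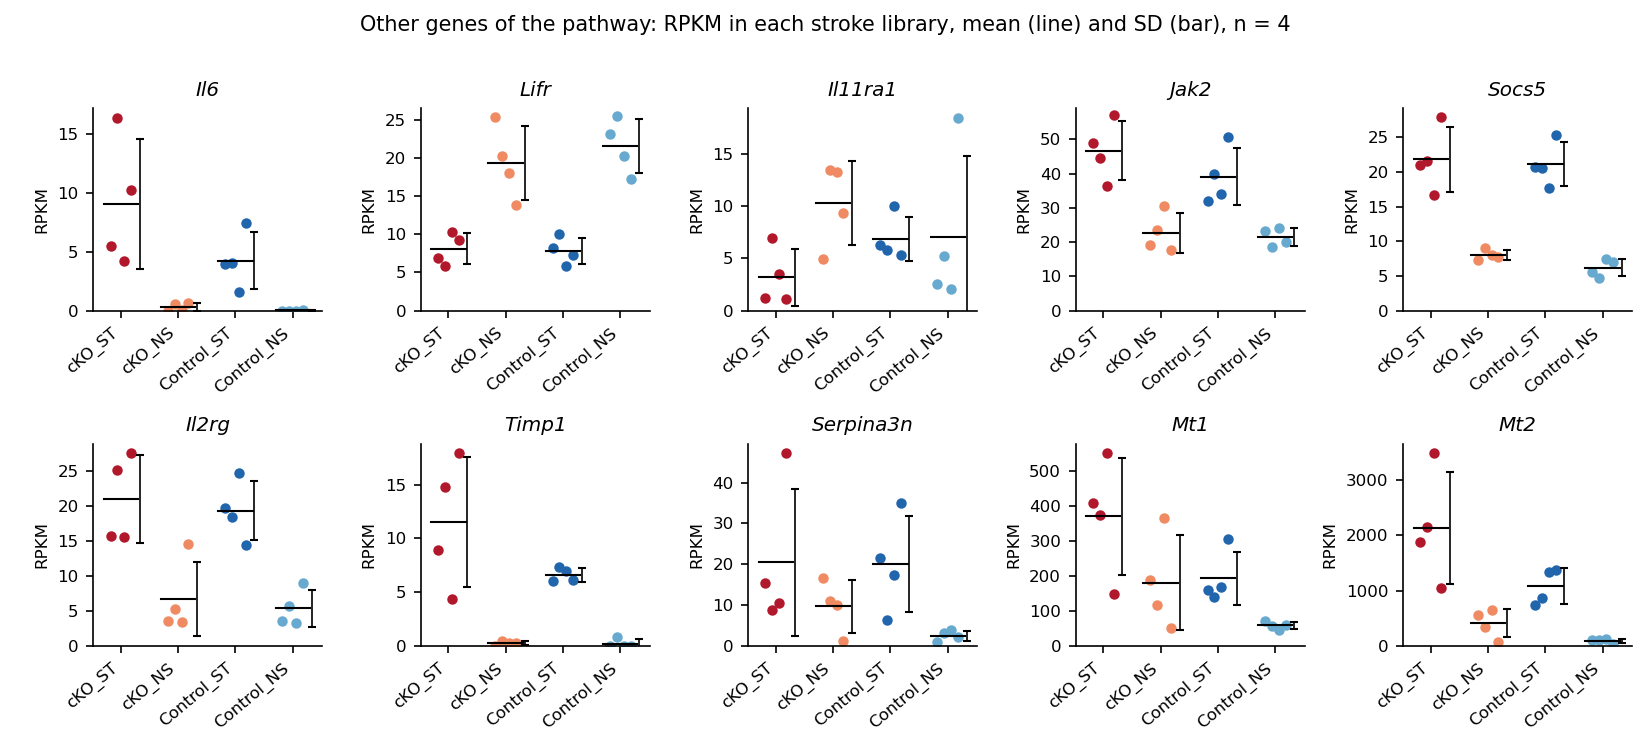
RPKM of 10 other genes of the pathway (vertical axes, from 0) in every library of cKO_ST, cKO_NS, Control_ST and Control_NS (points), with the group mean (line) and SD (bar, n = 4, ending at the axis where it would pass 0). Il6, Timp1 and Socs5 in both stroke groups sit above every non-stroke library, and Lifr in both stroke groups sits below them.

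Lifr, the leukemia inhibitory factor receptor that also pairs with gp130, fell in both genotypes. It averaged 8.08 ± 2.04 RPKM in cKO_ST and 19.4 ± 4.84 RPKM in cKO_NS, and 7.83 ± 1.73 RPKM in Control_ST and 21.5 ± 3.55 RPKM in Control_NS (n = 4 each). It fell by 1.16 ± 0.24 in knockouts (limma adjusted p = 0.00303) and by 1.36 ± 0.24 in controls (adjusted p = 9.72e-04), on the log2 scale. Of the 5 other receptors of the family 2 were tested. In knockouts 2 fell and in controls 1, where 8.71% and 4.84% of all genes fell. The second, Il11ra1, the interleukin-11 receptor, fell in knockouts (-1.56 ± 0.52, adjusted p = 0.0499) with overlapping groups (3.19 ± 2.72 RPKM in cKO_ST and 10.3 ± 4.03 RPKM in cKO_NS), and that call was lost without any single knockout library but cKO_NS 1 or cKO_ST 2 (adjusted p 0.0595 to 0.140). It was also lost without cKO_NS 4 and cKO_ST 3 (-1.68, adjusted p = 0.0898) and without cKO_NS 4 and cKO_ST 4 (-1.33, adjusted p = 0.177). In controls Il11ra1 was at 0.34 ± 0.52 (adjusted p = 0.741).

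Of 8 tested Janus kinases and other STATs 1 rose and 0 fell in each genotype, where 6.44% of all genes rose in knockouts and 8.46% in controls, too few to set the list apart. The 1 gene was Jak2, a kinase bound to gp130. Jak2 averaged 46.7 ± 8.64 RPKM in cKO_ST and 22.7 ± 5.79 RPKM in cKO_NS (1.02 ± 0.21, limma adjusted p = 0.00291), and 39.1 ± 8.36 RPKM in Control_ST and 21.6 ± 2.61 RPKM in Control_NS (0.82 ± 0.21, adjusted p = 0.0139; 0.69 and adjusted p = 0.0513 without Control_ST 4). Of 12 tested inhibitors other than Socs3, 1 rose in each genotype, again near the shares of 6.44% and 8.46% over all genes. The 1 gene was Socs5, of the same family. Socs5 averaged 21.8 ± 4.67 RPKM in cKO_ST and 8.01 ± 0.764 RPKM in cKO_NS (1.32 ± 0.21, adjusted p = 3.79e-04), and 21.1 ± 3.19 RPKM in Control_ST and 6.21 ± 1.27 RPKM in Control_NS (1.62 ± 0.21, adjusted p = 5.76e-05). Pias3, an inhibitor of DNA binding by STAT3, fell in knockouts (-0.81 ± 0.26, adjusted p = 0.0440), and did not pass with numbers paired (adjusted p = 0.0603) or without any single knockout library but cKO_NS 1 or cKO_ST 3 (adjusted p 0.0540 to 0.113). It was at -0.22 ± 0.26 in controls.

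Of 30 other acute-phase genes 6 were tested, and 2 rose in knockouts and 4 in controls, with 0 falling in either. Over all genes tested 6.44% rose in knockouts and 8.46% in controls. The list had a median log2 difference of 1.22 in knockouts, against -0.13 over all genes, and of 2.05 in controls, against 0.01 over all genes. A gene near 0 without stroke could enter this list only through high stroke libraries, as Timp1 did. Its direction was thus fixed by the filter, and the counts and medians lean upward. Timp1, an inhibitor of matrix metalloproteinases, was near 0 in non-stroke libraries (at most 0.441 RPKM in cKO_NS and 0.807 RPKM in Control_NS). It averaged 11.5 ± 6.04 RPKM in cKO_ST (3.17 ± 0.35, limma adjusted p = 1.29e-05) and 6.62 ± 0.651 RPKM in Control_ST (2.71 ± 0.35, adjusted p = 4.88e-05), and passed the filter only through these stroke libraries. The metallothionein Mt2, a metal-binding protein, averaged 2139 ± 1013 RPKM in cKO_ST and 409 ± 257 RPKM in cKO_NS (2.64 ± 0.56, adjusted p = 0.00354), and 1079 ± 324 RPKM in Control_ST and 88.1 ± 40.1 RPKM in Control_NS (3.72 ± 0.56, adjusted p = 2.09e-04).

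Serpina3n, a serine protease inhibitor, rose in controls, with 20.0 ± 11.8 RPKM in Control_ST and 2.5 ± 1.22 RPKM in Control_NS (2.45 ± 0.62, limma adjusted p = 0.0125). In knockouts Serpina3n was at 1.05 ± 0.62 (adjusted p = 0.271), with 47.2 RPKM in cKO_ST 4 and 8.87 to 15.3 RPKM in the other 3 cKO_ST libraries, and at -0.11 without cKO_NS 4 and cKO_ST 4. Mt1, the other metallothionein, rose in controls (1.66 ± 0.46, adjusted p = 0.0222), a call lost without Control_NS 3 (1.55, adjusted p = 0.0591) or Control_ST 4 (1.42, adjusted p = 0.0753). In knockouts Mt1 was at 1.22 ± 0.46 (adjusted p = 0.0835) and passed with numbers paired (adjusted p = 0.00262), without cKO_NS 3 (1.66, adjusted p = 0.0157), without cKO_ST 4 (1.61, adjusted p = 0.0254) or without cKO_NS 4 and cKO_ST 4 (1.12, adjusted p = 0.0456). It was 0.49 without cKO_NS 4 and cKO_ST 3 (adjusted p = 0.471), and Mt2 in knockouts was then 1.68 (adjusted p = 0.0154). None of these 6 differed between genotypes in either hemisphere at the threshold (3 in the non-stroke and 1 in the stroke hemisphere had an unadjusted p under 0.05).

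Of 16 tested STAT3 targets 5 rose and 1 fell in knockouts, where 6.44% of all genes rose and 8.71% fell. In controls 9 rose and 0 fell, where 8.46% of all genes rose and 4.84% fell. Their median log2 fold change was 0.40 in knockouts, against -0.13 over all genes, and 0.99 in controls, against 0.01 over all genes. These counts and medians include Myc, whose direction was fixed by the filter on low values. Icam1, a leukocyte adhesion molecule, averaged 39.1 ± 2.23 RPKM in cKO_ST and 9.71 ± 4.07 RPKM in cKO_NS (1.97 ± 0.30, limma adjusted p = 2.83e-04), and 29.3 ± 12.7 RPKM in Control_ST and 3.25 ± 1.43 RPKM in Control_NS (2.81 ± 0.30, adjusted p = 9.25e-06). Myc, a growth regulator, averaged 8.26 ± 3.65 RPKM in cKO_ST and 0.276 ± 0.179 RPKM in cKO_NS, and 6.03 ± 1.27 RPKM in Control_ST and 0.266 ± 0.359 RPKM in Control_NS, and rose by 2.79 ± 0.30 in knockouts (adjusted p = 9e-06) and 2.49 ± 0.30 in controls (adjusted p = 2.24e-05), having passed the filter on low values only through the stroke libraries. Hif1a, a hypoxia-response factor, averaged 456 ± 35.7 RPKM in cKO_ST and 206 ± 24.2 RPKM in cKO_NS, and 372 ± 79.1 RPKM in Control_ST and 169 ± 1.57 RPKM in Control_NS, and rose by 1.15 ± 0.15 in knockouts and 1.11 ± 0.15 in controls (adjusted p = 7.4e-05 and 9.3e-05).

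Bcl2l1, which protects cells from apoptosis, was the 1 target that fell, with 34.6 ± 2.56 RPKM in cKO_ST and 79.8 ± 14.0 RPKM in cKO_NS (-1.17 ± 0.21, limma adjusted p = 9.14e-04). In controls it had 42.4 ± 11.5 RPKM in Control_ST and 56.6 ± 12.5 RPKM in Control_NS (-0.42 ± 0.21, adjusted p = 0.199), and the interaction did not pass (-0.74 ± 0.29, adjusted p = 0.681). Il2rg, the common gamma chain that pairs with Il4ra, rose in both genotypes, as 1 of 3 tested genes of the interleukin-4 and interleukin-13 pathway. Over all genes tested 6.44% rose in knockouts and 8.46% in controls. Il2rg averaged 21.0 ± 6.30 RPKM in cKO_ST and 6.73 ± 5.34 RPKM in cKO_NS (1.68 ± 0.37, adjusted p = 0.00526), and 19.4 ± 4.24 RPKM in Control_ST and 5.36 ± 2.66 RPKM in Control_NS (1.75 ± 0.37, adjusted p = 0.00414). Of the other C/EBP factors 3 were tested and 0 passed in either genotype, with 0 at an unadjusted p under 0.05. The most abundant of them, Cebpg, averaged 24.6 ± 5.11 RPKM in cKO_ST and 18.6 ± 2.84 RPKM in cKO_NS, and 20.5 ± 3.20 RPKM in Control_ST and 20.5 ± 4.39 RPKM in Control_NS. Ddit3, a stress-induced member, averaged 9.64 ± 4.27 RPKM in cKO_ST and 7.05 ± 3.42 RPKM in cKO_NS, and 8.71 ± 8.59 RPKM in Control_ST and 5.45 ± 3.17 RPKM in Control_NS.

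In the exon 3 experiment 9 members were tested and 0 passed in limma, as did 0 of 11252 genes (0%, with 590 at an unadjusted p under 0.05). With 5 libraries the fit had 3 residual degrees of freedom, and the 95% intervals of the members were wide (2.2 to 6.52 for Lcn2 and -1.07 to 3.35 for Lrg1). On simulated data this fit recovered 0% of log2 changes of 1 and 11% of log2 changes of 2, so most true changes would be missed. Of the 9 values 8 were positive, with a median of 0.81, against -0.06 over all genes tested. Stat3, Socs3, Cebpd and Lcn2 were higher without overlap, which held for 8.66% of genes. Lcn2 was near 0 in Bcat_control and passed the filter only through Bcat_exon3. Its positive direction in these counts was therefore fixed by the filter.

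Lcn2 had 13.1, 8.70 and 119 RPKM in Bcat_exon3, against 0.526 and 0 RPKM in Bcat_control. All 3 exon 3 libraries were above both controls, and Bcat_exon3 3 was the highest by far (4.36 ± 0.96, limma adjusted p = 0.649). Lcn2 passed the filter on low values only through the exon 3 libraries. Neutrophil marker sums were 8.80 to 14.9 RPKM in Bcat_exon3 and 9.66 to 11.4 RPKM in Bcat_control, with Cxcr2 at up to 7.46 RPKM and Csf3r at up to 6.01 RPKM. S100a8 was at 1.45 RPKM in Bcat_exon3 2 and at 0 in the other libraries, S100a9, Retnlg and Mpo were at 0 in all 5, and the part of neutrophil RNA in the Lcn2 values was not tested. Lrg1 had 1.52, 12.9 and 21.6 RPKM in Bcat_exon3, against 8.26 and 0.904 RPKM in Bcat_control, with overlap (1.14 ± 0.98, adjusted p = 0.969).

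**Figure D4:**
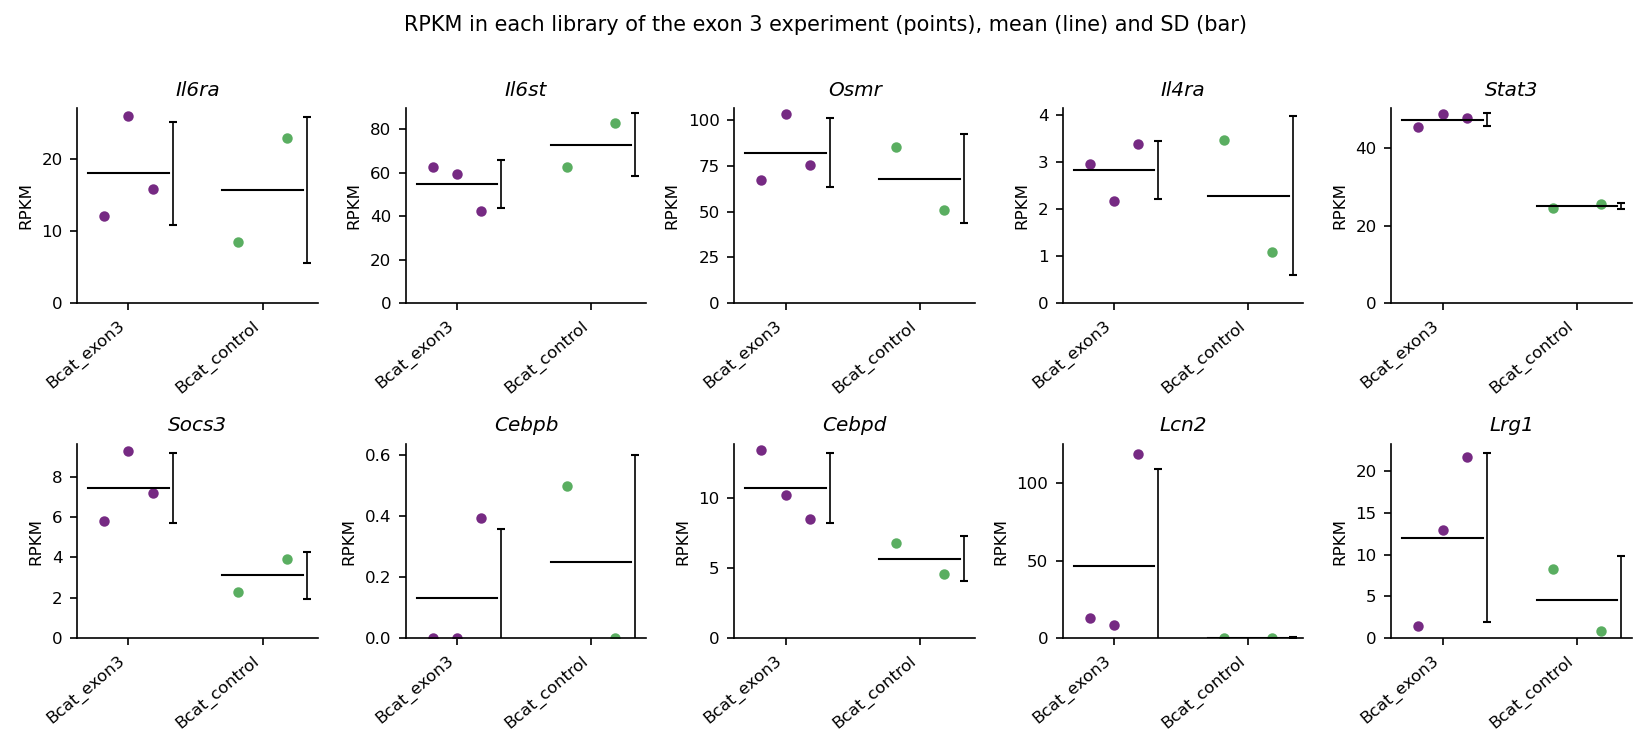
RPKM of the 10 members (vertical axes, from 0) in each library of Bcat_exon3 (n = 3) and Bcat_control (n = 2), with the group mean (line) and SD (bar, ending at the axis where it would pass 0). Stat3, Socs3, Cebpd and Lcn2 in Bcat_exon3 sit above both Bcat_control libraries, and the other members overlap.

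Stat3 in this experiment had 45.5, 48.7 and 47.8 RPKM in Bcat_exon3, against 24.5 and 25.6 RPKM in Bcat_control. The libraries of each group lay close together and the groups well apart (0.89 ± 0.26, limma adjusted p = 0.869, unadjusted p = 0.00698). Socs3 had 5.82, 9.25 and 7.16 RPKM in Bcat_exon3, against 2.27 and 3.94 RPKM in Bcat_control (1.04 ± 0.51, adjusted p = 0.957). Cebpd had 13.4, 10.2 and 8.49 RPKM in Bcat_exon3, against 6.79 and 4.55 RPKM in Bcat_control (0.81 ± 0.44, adjusted p = 0.961).

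The receptors overlapped between exon 3 and control libraries. Il6ra averaged 17.9 ± 7.16 RPKM in Bcat_exon3 and 15.6 ± 10.1 RPKM in Bcat_control (0.27 ± 0.49), and Osmr averaged 82.3 ± 18.8 RPKM in Bcat_exon3 and 68.1 ± 24.4 RPKM in Bcat_control (0.29 ± 0.31). Il6st was the 1 member tested in limma with a negative value, at 62.8, 59.4 and 42.2 RPKM in Bcat_exon3 and 62.8 and 83.1 RPKM in Bcat_control (-0.41 ± 0.28, limma adjusted p = 0.966). Il4ra averaged 2.84 ± 0.615 RPKM in Bcat_exon3 and 2.28 ± 1.69 RPKM in Bcat_control (0.32 ± 0.63). Cebpb was under the filter, at 0, 0 and 0.394 RPKM in Bcat_exon3 and 0.498 and 0 RPKM in Bcat_control, and an exact two-sided permutation test gave p = 0.7, where 3 against 2 libraries allow no p below 0.1. Il6 was listed at 0 in all 5 libraries. None of the other lists of pathway genes held a gene that passed here, in either comparison of genotypes in the stroke experiment or in the interaction.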

How the data were processed

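The authors deposited one table of RPKM values per gene and library. They were made with edgeR on mm10, per the submitters' processing notes, with aligner, gene lengths and strand setting not stated there. Of 24260 rows, 54 that share 23 names were left out, and 8 columns that match no described sample were not used. RPKM are not counts, so limma 3.58.1 in R 4.3.3 was run on log2(RPKM + 1), for genes with a mean of at least 1 RPKM, with Benjamini-Hochberg adjustment over all genes tested and a threshold of 0.05. One fit held the 4 stroke groups and another the exon 3 experiment; Xist and Y-linked genes were left out. Both were tested on simulated data with log2 changes of 1 and 2. For the stroke effect in controls 50% and 88% of these changes passed the threshold. For the exon 3 effect 0% and 11% passed. Depth was estimated from whole-read steps in the deposited RPKM.

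Members and lists were chosen with earlier results of these data known. All members were named; of each other list, up to 4 genes with the lowest p past the threshold in either stroke effect were named, or the 2 most abundant if none passed, and for 4 members the 3 most alike genes, of which 1 is not reported here. Same-numbered cKO_ST and cKO_NS libraries deviated together (correlations 0.10, 0.13, 0.21 and 0.11). Between genotypes, same-numbered libraries had correlations of 0.060, 0.099, 0.0016 and 0.0055 in the non-stroke hemisphere. In the stroke hemisphere these were 0.033, 0.056, -0.017 and 0.030. Same-numbered stroke and non-stroke libraries were paired within each genotype in an alternative. Another, the replicate block, matched same-numbered libraries over all groups of a fit. Knockout and control libraries come from different mice, so a number they share is not a pairing of animals. Other alternatives changed the pseudocount, filter, scaling, variance trend, groups fitted and libraries kept.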

Additional observations from a re-analysis of the deposited data

Results flagged for a closer look

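In 12 of 108 groups of 4 libraries, over 27 genes, 1 library lay far from the other 3 by Dixon's test; chance gives about 1 in 20 groups. Lcn2 was at 944 RPKM in cKO_ST 3, against 269 to 344 RPKM in the rest of that group, and at 266 RPKM in cKO_NS 3, against 73.2 to 83.9 RPKM. Socs3 was at 30.3 RPKM in cKO_NS 4, against 12.2 to 12.8 RPKM. Il4ra was at 6.40 RPKM in cKO_ST 1, against 10.1 to 10.4 RPKM, and at 5.07 RPKM in Control_NS 1, against 0.660 to 1.04 RPKM. Il6ra was at 3.39 RPKM in cKO_NS 1, against 1.58 to 1.64 RPKM.

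Among the other genes of the pathway, Serpina3n was at 47.2 RPKM in cKO_ST 4, against 8.87 to 15.3 RPKM, and Ddit3 at 16.0 RPKM in the same library, against 6.68 to 8.13 RPKM. Il2rg was at 14.6 RPKM in cKO_NS 4, against 3.39 to 5.29 RPKM. Near the lower limit, Myc was at 0.803 RPKM in Control_NS 4, against 0.0602 to 0.111 RPKM, Timp1 at 0.807 RPKM in Control_NS 2 and Il6 at 0.0630 RPKM in Control_NS 4, each against 0 in the rest of the group.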

How the results depend on the processing

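In the non-stroke comparison of genotypes, the genes past the threshold numbered 31, and 19 with no filter, 84 with a mean of at least 5 RPKM, 12 with no variance trend, 2 with the 2 groups fitted alone and 75 without cKO_NS 4 and cKO_ST 4. The last setting was chosen after seeing the data. With the replicate block, which matches numbers over all 4 groups and so also across genotypes, they numbered 60. Members called there were 0, and 1 with a mean of at least 5 RPKM (Socs3), 1 with the replicate block (Lcn2, adjusted p = 0.0466), 1 without cKO_NS 4 and cKO_ST 3 (Cebpd) and 2 without cKO_NS 4 and cKO_ST 4. In controls 5 members passed with no filter, in place of 8. In knockouts 5 passed with either rescaling, in place of 2. Same-numbered Control_ST and Control_NS libraries had correlations of 0.099, 0.13, 0.072 and 0.012. Numbers 1, 2 and 3 were most like their own number, and number 4 was not. With numbers paired within each genotype 8 members passed in controls and 3 in knockouts.

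Without 1 library, called members ranged over 4 to 6 in controls (993 to 1113 genes), 2 to 3 in knockouts (1044 to 1513 genes), 0 to 1 between genotypes in the non-stroke hemisphere (1 to 41 genes) and 0 to 0 in the stroke hemisphere (0 to 8 genes), and stayed at 0 for the interaction and exon 3. Direction turned for some values. With median-of-ratios scaling those were Stat3 in the stroke hemisphere (0.013) and the Il4ra interaction (0.064), and with quantile normalization Il6ra in the non-stroke hemisphere (-0.0051) and the Il4ra interaction (0.12). Without cKO_NS 4 and cKO_ST 3 they were Cebpd in knockouts (-0.17) and Socs3 in the stroke hemisphere (0.071). Without cKO_NS 4 and cKO_ST 4 they were Osmr (-0.044), Cebpd (-0.069) and Serpina3n (-0.11) in knockouts, Stat3 (0.032) and Lrg1 (-0.0026) in the stroke hemisphere, and the Cebpb interaction (0.059). Without 1 library, interactions ranged over -0.49 to 0.14 for Il4ra, -0.48 to 0.022 for Stat3, -0.047 to 0.27 for Il6ra and -0.49 to 0.13 for Cebpb. Values in the non-stroke hemisphere ranged over -0.046 to 0.45 for Stat3 and -0.035 to 0.22 for Il6ra, and in the stroke hemisphere over -0.18 to 0.13 for Stat3, -0.21 to 0.11 for Socs3, -0.24 to 0.043 for Osmr and -0.0026 to 0.97 for Lrg1. In knockouts they ranged over -0.029 to 0.53 for Cebpd and -0.022 to 0.26 for Osmr and -0.084 to 0.54 for Tnfrsf1a. For exon 3 they ranged over -0.39 to 0.93 for Il6ra, -0.075 to 0.66 for Osmr and -0.23 to 0.87 for Il4ra. The cause of these changes was not tested.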
